A study of Mus musculus with 35 samples.

Results

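A set of 10 genes was followed across the study: the phosphatase genes Dusp4, Dusp5 and Dusp6, the Sprouty and Spred genes Spry1, Spry2, Spry4, Spred1 and Spred2, and the transcription factor genes Etv4 and Etv5. They were taken by name as genes of the negative feedback on ERK signaling, by a rule that uses no measured value but was set with earlier results of these data known, and are 10 of the 24421 genes in each count file. All 10 passed the filter on low counts in both sets of libraries. In the cascade that they belong to, receptor tyrosine kinases switch on RAS, which activates the kinases RAF, MEK and ERK in turn. Active ERK raises the transcription of its own brakes: DUSP proteins remove phosphate from ERK, Sprouty proteins interfere with signaling between receptor and RAF, and Spred proteins bring the RAS inactivator neurofibromin to the membrane. ETV4 and ETV5 are ETS-family activators whose genes are switched on by growth factor and ERK signaling in many tissues, so that transcripts of these families are often read as a record of past ERK output, although each gene has other inputs too.

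The cells were immortalized mouse embryonic fibroblasts (MEFs) with the genotype Nelfb flox/-, which carry a null and a floxed allele of Nelfb, the gene of a subunit of the negative elongation factor NELF, so that all groups shared the null allele. In 20 libraries from cell populations, pLenti vectors had delivered nothing (EV), wild-type NELFB (WT), MT194, MT486 or DMT, which holds the changes of both mutants, and RNA was taken 7 days after Ad-Cre-GFP (here Ad-Cre), which deletes the floxed allele, or after Ad-GFP, with 2 replicates of each of the 10 groups. A further 15 libraries came from single clones isolated after Ad-Cre, 3 each with pLenti-WT-NELFB (WT clones), pLenti-MT194, pLenti-MT486, pBabe-WT-ATG-NELFB (WT(N48) clones) or pBabe-delta-C60 (Δ-C60 clones). The study reports that MT194 does not bind NELFA or NELFC, and that MT486 and the C-terminal truncation Δ-C60 do not bind NELFE. By the study's methods, the pLenti vector drives NELFB from a CMV promoter, and cells were grown with 10% serum. Each population library had 17969149 to 29080007 reads on genes, and each clone library 18413284 to 27816723.

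Nelfb reads were examined first, as a check of the labels. In EV they were 7.97 and 5.46 CPM (reads scaled to a common library size after TMM normalization) with Ad-Cre against 46.1 and 39.5 CPM with Ad-GFP. In the populations with a construct they were between 60.5 and 208 CPM and differed by construct. With Ad-Cre the means were 68.2 CPM in WT, 111 in MT194, 122 in MT486 and 188 in DMT. With Ad-GFP they were 90.1, 68.1, 85.7 and 67.6 CPM in the same order. The part of these levels in the comparisons of constructs was not tested. Among the libraries labelled WT clone, Nelfb had 10.3, 109 and 15.5 CPM. Clones 1 and 3 were closer to EV with Ad-Cre than to EV with Ad-GFP, although above both EV-Cre libraries. The clones and populations were normalized separately. The other 12 clones had 56.3 to 247 CPM, and the libraries labelled WT clone are called by that label throughout. Of the 8 fibroblast markers examined, Fn1, the gene of fibronectin, was the most abundant, with 8543 to 26336 CPM in the populations, while Thy1 was nearly absent, with a mean of 0.0267 CPM. Markers of other cell types were low in the populations, where 5 epithelial markers summed to at most 5.81 CPM, 4 endothelial markers to at most 1.25 CPM and 4 leukocyte markers to at most 5.37 CPM. In the clones the epithelial sum reached 100.7 CPM in Δ-C60 clone 3, nearly all of it Krt19 with 100.2 CPM. Single markers differed between EV-Cre and EV-GFP in both directions, in means of 2 libraries: Fn1 had 17734 against 11291 CPM and Krt19 3.13 against 1.35, while Col1a1 had 4052 against 6843 and Col3a1 443 against 834. With Ad-Cre against Ad-GFP, Krt19 was also higher in DMT (5.12 against 1.70 CPM), MT486 (4.24 against 1.67), MT194 (3.78 against 1.59) and WT (2.98 against 1.25). Fn1 had 20160 against 11224 CPM in DMT, 15274 against 11744 in MT486, 18870 against 11666 in MT194 and 12745 against 9364 in WT. The fibroblast sum was 20586 and 32305 CPM in EV-Cre against 19931 and 28673 CPM in EV-GFP. The part of these shifts in the results was not tested.

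Per kb of exon, the feedback genes spanned a wide range in EV cells given Ad-GFP, which keep the floxed allele. Spry2 was the highest, with 19.9 ± 5.64 CPM per kb (SD, n = 2 libraries), followed by Spred1 with 9.92 ± 2.15, Dusp6 with 6.08 ± 1.31 and Spred2 with 6.06 ± 1.83 CPM per kb. Spry1 had 3.61 ± 1.55, Dusp4 2.00 ± 0.37, Etv4 1.89 ± 0.23 and Etv5 1.08 ± 0.57 CPM per kb. At the bottom were Spry4, with 0.397 ± 0.112 CPM per kb, and Dusp5, with 0.317 ± 0.198 CPM per kb. The libraries of neighbours in this order overlapped for Dusp6 and Spred2, for Dusp4 and Etv4 and for Spry4 and Dusp5, and did not overlap at the other steps. Dusp5 rested on the fewest reads, 9 to 107 per population library, and Spry4 on 22 to 165.

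In mm10 the phosphatase genes lie at chr8:34807297-34819894 (Dusp4), chr19:53529109-53542431 (Dusp5) and chr10:99263231-99267489 (Dusp6), and Etv4 and Etv5 lie at chr11:101769742-101785371 and chr16:22381309-22439719. Spry1 lies at chr3:37639947-37644598, Spry2 at chr14:105891947-105896819, Spred1 at chr2:117121374-117182279 and Spred2 at chr11:19924375-20024026. Exons of Dusp5 and Spry1 overlap an annotated gene on the opposite strand (AC137853.2 and Gm42922), and whether reads were counted by strand is not given in the sources used here, so reads of these partners could not be told apart.

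For 7 of the 10 genes RefSeq (GRCm38.p6, which is mm10) gave promoter windows, from 250 bases before to 50 bases from the transcription start, and 4 of these windows are shown. Those of Dusp5, Spry1 and Etv5 were picked because these genes rose after loss of Nelfb. That of Spry2 was picked because it alone held CCGGAA, the only ETS motif searched for. The windows lie at chr19:53528895-53529194 (plus strand) for Dusp5, chr3:37639697-37639996 (plus strand) for Spry1, chr16:22439521-22439820 (minus strand) for the first start of Etv5 and chr14:105896770-105897069 (minus strand) for Spry2, and capitals mark motif matches.
Dusp5: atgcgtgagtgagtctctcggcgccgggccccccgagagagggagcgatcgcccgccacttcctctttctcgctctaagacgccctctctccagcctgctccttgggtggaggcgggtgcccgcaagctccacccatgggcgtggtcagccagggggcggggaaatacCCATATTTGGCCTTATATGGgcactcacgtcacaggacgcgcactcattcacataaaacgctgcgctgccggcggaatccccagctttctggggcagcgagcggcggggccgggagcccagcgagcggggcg
Spry1: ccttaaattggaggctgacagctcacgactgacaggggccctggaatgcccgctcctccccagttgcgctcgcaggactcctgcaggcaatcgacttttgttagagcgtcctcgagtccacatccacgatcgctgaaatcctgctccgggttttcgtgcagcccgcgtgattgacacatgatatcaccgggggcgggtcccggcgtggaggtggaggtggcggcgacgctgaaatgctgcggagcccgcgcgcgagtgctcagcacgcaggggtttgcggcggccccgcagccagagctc
Etv5: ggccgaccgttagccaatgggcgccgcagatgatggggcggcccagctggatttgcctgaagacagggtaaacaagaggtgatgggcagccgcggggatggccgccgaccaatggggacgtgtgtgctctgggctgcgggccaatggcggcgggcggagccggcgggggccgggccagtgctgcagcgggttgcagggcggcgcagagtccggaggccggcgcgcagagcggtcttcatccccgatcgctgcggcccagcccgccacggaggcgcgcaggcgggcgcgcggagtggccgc
Spry2: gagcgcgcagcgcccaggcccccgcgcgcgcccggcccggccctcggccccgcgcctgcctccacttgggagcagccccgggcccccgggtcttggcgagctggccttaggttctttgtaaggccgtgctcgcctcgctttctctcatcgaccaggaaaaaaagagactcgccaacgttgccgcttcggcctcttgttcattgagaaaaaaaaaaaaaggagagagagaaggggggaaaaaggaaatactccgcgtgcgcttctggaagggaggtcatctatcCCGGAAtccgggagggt

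Motifs were searched on both strands in the 8 windows of the 7 genes. The Dusp5 window held 2 adjacent CArG boxes, the element bound by serum response factor, starting 82 and 72 bases before the transcription start, and 1.63% of all 32851 mouse windows held at least 1 such box. The ETS core with its flank, CCGGAA, was found in the Spry2 window only, 33 bases after the start, and in 14.9% of all windows. The core GGAA with other flanks, which occurs for example in the Dusp5 window, was not searched. Neither the AP-1 site TGAGTCA (5.2% of all windows), the CRE TGACGTCA (1.79%) nor the octamers TGAATGAA and TGAATGGA bound by the repressor CIC (2.47%) occurred in any of the 8 windows. Variants of these octamers with G in place of the last A were not searched. Such variants occur, for example, in the Dusp5 window and in the window of the other Etv5 start, which is not shown. The absence of the searched octamers therefore does not show that CIC-like sites are absent. These are matches of letters in short windows, and binding was not measured in the data used here.

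EV cells given Ad-Cre were compared with EV cells given Ad-GFP to ask how the feedback genes behaved when Nelfb was deleted and not replaced. Of the 10 genes, 6 rose: Dusp4, Dusp5, Spry1, Spry4, Etv4 and Etv5, by 2.09-fold to 5.03-fold, with an adjusted p under 0.05 and a log2 fold change over 1 (edgeR's quasi-likelihood test, adjusted over all genes). None fell, and all 10 had a log2 fold change above 0, with a median of 1.40 beside 0.00 over all genes tested. By the same thresholds 6.52% of all 13805 genes tested were called, and 3.28% were called as higher. In 9 of the 10 genes both Ad-Cre libraries lay above both Ad-GFP libraries, as in 24.5% of all genes, and Spred1 was the exception. In these bulk populations, a larger share of cells with a transcript and more of it per cell cannot be told apart. By Western blotting, the study reports that phosphorylated AKT, MEK and ERK proteins were reduced in MEFs depleted of NELFB by Cre. Phosphorylation was not measured in the data used here, and its relation to these transcripts was not tested.

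**Figure D1:**
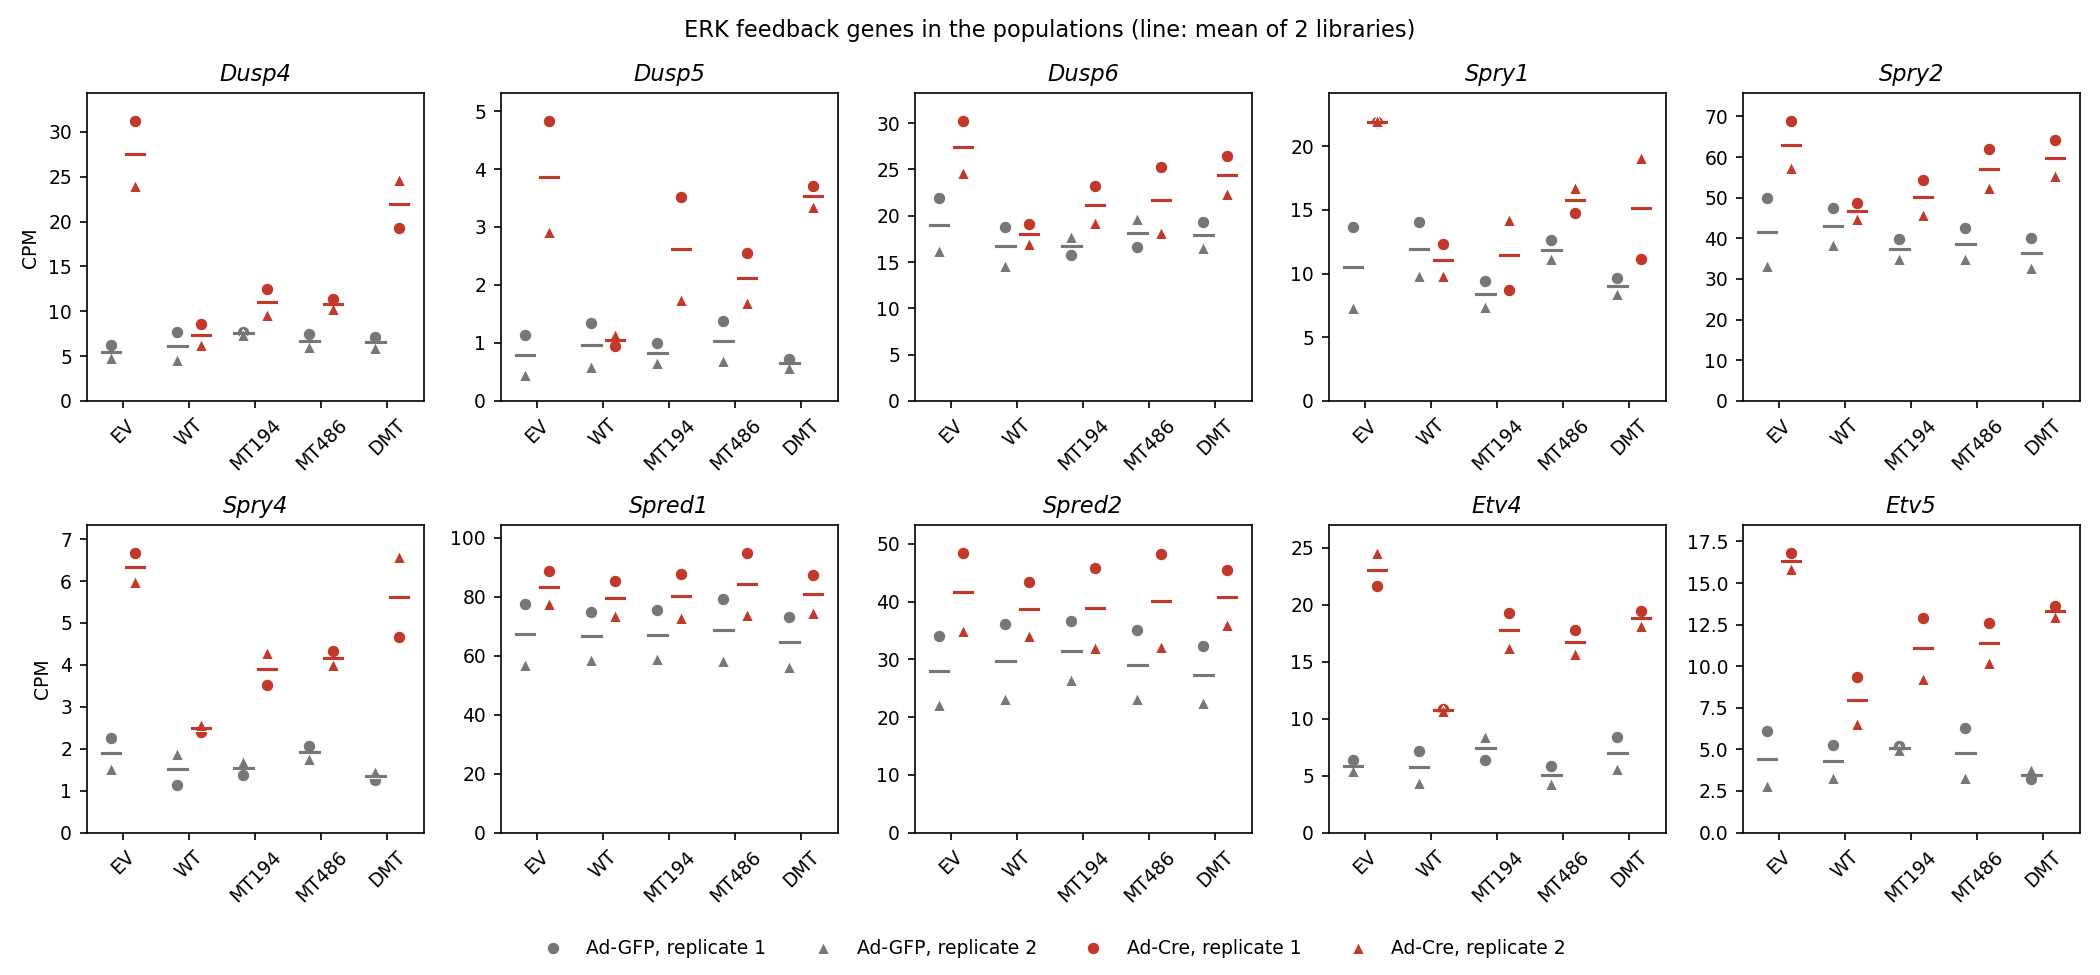
CPM (y axis, starting at 0) of each feedback gene in the 20 population libraries, by construct (x axis), with Ad-GFP in grey and Ad-Cre in red, circles for replicate 1, triangles for replicate 2 and lines for the mean of 2. Dusp4, Dusp5, Spry2, Spry4, Etv4 and Etv5 separate by virus in EV, MT194, MT486 and DMT, and Spry4, Etv4 and Etv5 also in WT. The Spred genes differ more between replicates than between constructs given the same virus.

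Among the phosphatases, Dusp4, whose product acts on ERK and other MAP kinases in the nucleus, had 31.2 and 24.0 CPM with Ad-Cre against 6.19 and 4.78 with Ad-GFP. Its log2 fold change was 2.33 (SE 0.27, adjusted p = 0.000197), the largest of the 10. Dusp5, which encodes a nuclear phosphatase specific for ERK, had 4.82 and 2.92 CPM against 1.13 and 0.44. This was a log2 fold change of 2.30 (SE 0.52, adjusted p = 0.0121). Its SE was the largest of the 10. For Dusp6, the cytoplasmic ERK phosphatase, the values were 30.2 and 24.6 CPM against 21.9 and 16.1, and the log2 fold change of 0.53 (SE 0.21, adjusted p = 0.13) did not pass the test.

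Of the Sprouty genes, Spry4 had 6.67 and 5.98 CPM with Ad-Cre against 2.26 and 1.51 with Ad-GFP, a log2 fold change of 1.74 (SE 0.27, adjusted p = 0.00107). Spry1 had 21.9 CPM in both Ad-Cre libraries against 13.7 and 7.31, and its log2 fold change of 1.06 (SE 0.33, adjusted p = 0.049) was just past both thresholds. With the size factors of DESeq2 (adjusted p = 0.0527) or no filter on low counts (adjusted p = 0.0536) Spry1 fell short, which left 5 genes called, and it was called in 1 of 4 fits that left out a library. Spry2, the most abundant of the family, had 68.7 and 57.3 CPM against 49.9 and 33.2. Its log2 fold change was 0.60 (SE 0.20, adjusted p = 0.0732), short of the threshold. Of the Spred genes, Spred1 had 88.8 and 77.5 CPM against 77.6 and 57.0, and Spred2 had 48.4 and 34.9 against 34.0 and 22.0. Neither passed the test, with log2 fold changes of 0.31 (SE 0.23, adjusted p = 0.439) and 0.57 (SE 0.34, adjusted p = 0.313). Ad-Cre was higher within each replicate number, and with the replicate block the adjusted p was 0.00356 for Spred1, 7.05e-05 for Spred2, 4.39e-05 for Spry2 and 0.00692 for Dusp6, so that in that fit only the fold threshold kept these 4 genes from being called.

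Both ETV genes rose. Etv4 had 21.6 and 24.5 CPM with Ad-Cre against 6.39 and 5.36 with Ad-GFP, a log2 fold change of 1.97 (SE 0.26, adjusted p = 0.000366). Etv5 had 16.8 and 15.9 CPM against 6.10 and 2.78, a log2 fold change of 1.88 (SE 0.36, adjusted p = 0.0049). The 6 genes that rose in EV were also the 6 with the lowest levels per kb in EV with Ad-GFP, and the 4 not called were the 4 highest, a description over 10 genes in which the Ad-GFP level enters both measures.

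The RNA-seq of the populations was done as 2 independent experiments by the study, and libraries of the same replicate number deviated together, so each comparison was also read within a replicate number. In EV the difference in log2 CPM between Ad-Cre and Ad-GFP was above 0 for 10 of 10 genes in replicate 1 (median 1.06) and for 10 of 10 in replicate 2 (median 1.75). For Dusp4 it was 2.31 in both replicates, whereas for Etv5 it was 1.45 and 2.48 and for Spry1 0.68 and 1.57. Dusp4, Spry4 and Etv4 were called whichever EV library was left out. Without EV-GFP replicate 2 the count was 3 of 10, without EV-Cre replicate 1 it was 4, losing Dusp5 and Spry1, and with the 4 EV libraries fitted alone it was 2.

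Wild-type NELFB was the control for Ad-Cre itself, since these cells received the same virus with NELFB supplied by the vector. Here none of the 10 genes was called, where 0.0217% of all genes were, and 3 of the 10 had an unadjusted p under 0.05 (DESeq2 also called 0 of 10). The members with the largest log2 fold changes were Etv4 with 0.90 (SE 0.25, adjusted p = 0.456), Etv5 with 0.90 (SE 0.37, adjusted p = 0.748) and Spry4 with 0.71 (SE 0.28, adjusted p = 0.715). In these 3 genes both Ad-Cre libraries still lay above both Ad-GFP libraries, as in 18.7% of all genes. Etv4 had 10.9 and 10.6 CPM against 7.20 and 4.34, Etv5 9.35 and 6.54 against 5.28 and 3.27, and Spry4 2.40 and 2.58 against 1.14 and 1.88. The 2 viruses gave overlapping values in the other 7 genes, Dusp4 among them with 8.57 and 6.20 CPM against 7.71 and 4.52, a log2 fold change of 0.28 (SE 0.27, adjusted p = 1.00). With the replicate block Etv4, Etv5 and Spred2 had adjusted p = 0.0147, 0.0376 and 0.0154 but log2 fold changes under 1.

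With both sets of changes combined in DMT, 5 of the 10 genes rose after Ad-Cre, beside 5.31% of all genes called and 2.61% called as higher. They were Dusp4, Dusp5, Spry4, Etv4 and Etv5. Dusp4 had 19.3 and 24.7 CPM against 7.17 and 5.90, a log2 fold change of 1.75 (SE 0.27, adjusted p = 0.00117), and Dusp5 had 3.71 and 3.35 against 0.73 and 0.58, a log2 fold change of 2.44 (SE 0.53, adjusted p = 0.0103). Spry4 had 4.66 and 6.58 CPM against 1.25 and 1.44, a log2 fold change of 2.05 (SE 0.27, adjusted p = 0.000493). The ETV genes followed, Etv4 with 19.5 and 18.1 CPM against 8.37 and 5.62 (log2 fold change 1.43, SE 0.25, adjusted p = 0.00307) and Etv5 with 13.6 and 13.0 against 3.22 and 3.74 (log2 fold change 1.93, SE 0.37, adjusted p = 0.00511). Spry2 passed the adjusted p but not the fold threshold, with a log2 fold change of 0.72 (SE 0.20, adjusted p = 0.0396), and the value of Spry1 was 0.75 (SE 0.33, adjusted p = 0.175). In all 10 genes the libraries separated by virus, as in 24% of all genes. Without DMT-GFP replicate 2 the count was 3, with Dusp5 (adjusted p = 0.113) and Etv4 (adjusted p = 0.0529) lost. Dusp5 was also lost without DMT-Cre replicate 1 (adjusted p = 0.0509) and without DMT-GFP replicate 1 (adjusted p = 0.0536).

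The single mutants MT194 and MT486 were compared in the same way. In MT194, 2 of the 10 genes rose, Spry4 and Etv4, where 2.48% of all genes were called in either direction. Spry4 had 3.52 and 4.28 CPM against 1.38 and 1.69 (log2 fold change 1.34, SE 0.27, adjusted p = 0.0144). Etv4 had 19.3 and 16.2 against 6.40 and 8.40 (log2 fold change 1.26, SE 0.25, adjusted p = 0.0122). In MT486 the same 2 genes rose, where 1.46% of all genes were called in either direction. Spry4 had 4.34 and 3.99 CPM against 2.08 and 1.77 (log2 fold change 1.11, SE 0.27, adjusted p = 0.0486). Etv4 had 17.8 and 15.7 against 5.83 and 4.27 (log2 fold change 1.72, SE 0.26, adjusted p = 0.00387). In each of these constructs 7 of 10 genes separated by virus, as did 16.7% of all genes in MT194 and 18% in MT486. With the replicate number as a block both counts were 4, since Dusp5 and Etv5 were then also called, beside 744 of all 13805 genes in MT194 and 586 in MT486. DESeq2 gave 4 in MT194, beside 490 of all genes, and 3 in MT486, beside 364. Without MT194-GFP replicate 1 or without MT486-GFP replicate 2, by contrast, no member was called in that construct, and without any other of their libraries the count was 1. Spry4 in MT486 was the gene lost in all 4 of these fits (adjusted p = 0.143 to 0.253), and it was also lost with the size factors of DESeq2 (adjusted p = 0.0511) and with no filter (adjusted p = 0.0714).

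Dusp4 was not called in either construct. Its log2 fold change was 0.56 (SE 0.26, adjusted p = 0.319) in MT194, where it had 12.5 and 9.63 CPM against 7.73 and 7.36. In MT486 the log2 fold change was 0.69 (SE 0.27, adjusted p = 0.235), from 11.4 and 10.3 CPM against 7.41 and 6.04. Dusp5 and Etv5 had log2 fold changes of 1.67 (SE 0.52, adjusted p = 0.0973) and 1.12 (SE 0.36, adjusted p = 0.105) in MT194, and of 1.02 (SE 0.52, adjusted p = 0.415) and 1.24 (SE 0.36, adjusted p = 0.0982) in MT486. Spry1, Dusp6, Spry2, Spred1 and Spred2 lay between 0.26 and 0.56 in both.

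**Figure D2:**
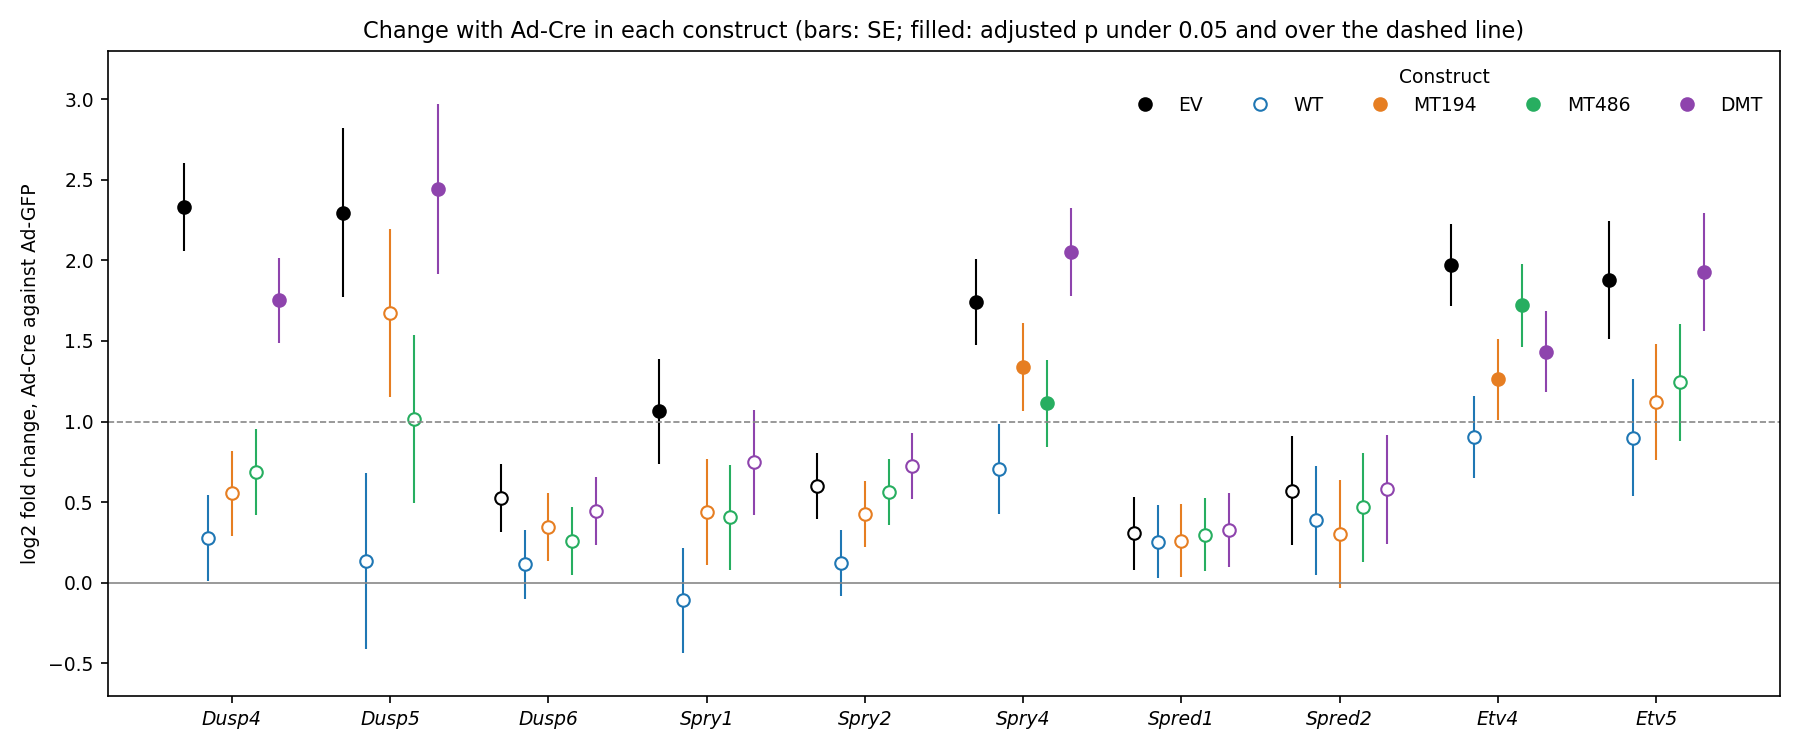
Log2 fold change of Ad-Cre against Ad-GFP (y axis) for each feedback gene (x axis) in the 5 constructs, with bars for the SE, filled points past both thresholds and the dashed line at 1. For Dusp4 the points of EV (2.33) and DMT (1.75) are filled, unlike those of WT (0.28), MT194 (0.56) and MT486 (0.69), while for Spred1 all 5 constructs lie between 0.25 and 0.33.

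Whether the change with Ad-Cre was smaller with a construct than in EV was tested directly as an interaction, in which all 4 constructs share the EV libraries. For WT only Dusp4 passed an adjusted p of 0.05, with a difference of -2.05 in log2 fold change (SE 0.38, adjusted p = 0.0299), beside 0.681% of all genes. The other 5 genes that rose in EV differed by -2.16 (Dusp5, SE 0.76, adjusted p = 0.259), -1.17 (Spry1, SE 0.46, adjusted p = 0.322), -1.03 (Spry4, SE 0.39, adjusted p = 0.291), -1.07 (Etv4, SE 0.36, adjusted p = 0.225) and -0.98 (Etv5, SE 0.51, adjusted p = 0.503). With the replicate block 5 genes passed, Dusp4, Dusp5, Spry2, Etv4 and Etv5, in a fit in which 2388 of all 13805 genes passed. In the fit without the block Dusp4 fell short when any 1 of 7 of the 8 libraries was left out (adjusted p = 0.0708 to 0.203), the exception being WT-GFP replicate 2.

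No feedback gene passed the interaction for MT194, MT486 or DMT, where 0.00724% of all genes (1 gene) did so in each case. For MT194 and MT486, 1 gene had an unadjusted p under 0.05, Dusp4, with differences of -1.77 (SE 0.37, adjusted p = 0.38) and -1.64 (SE 0.37, adjusted p = 0.491). DESeq2 called Dusp4 in both (adjusted p = 0.0138 and 0.021), and so did the replicate block (adjusted p = 0.00415 and 0.00474). For DMT the 10 differences ran from -0.58 for Dusp4 to 0.31 for Spry4, 0 of 10 had an unadjusted p under 0.05, and DESeq2 called 0.

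Ad-Cre libraries were also compared with each other, against EV-Cre, which again serves every comparison. WT-Cre had lower levels of 4 genes, Dusp4 (log2 fold change -1.90, SE 0.26, adjusted p = 0.00156), Dusp5 (-1.88, SE 0.50, adjusted p = 0.0371), Spry4 (-1.34, SE 0.26, adjusted p = 0.0085) and Etv4 (-1.10, SE 0.25, adjusted p = 0.0173), beside 4.05% of all genes called. Spry1 and Etv5 had log2 fold changes of -0.99 (SE 0.32, adjusted p = 0.0815) and -1.04 (SE 0.35, adjusted p = 0.0886), and Spred1 and Spred2 of -0.06 and -0.10. Etv5 was called as lower with the replicate block (adjusted p = 0.00104) and by DESeq2 (adjusted p = 0.0366). Without WT-Cre replicate 1 or without WT-Cre replicate 2 the count was 1 (Dusp4), and without EV-Cre replicate 2 it was 2.

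The mutants lay closer to EV-Cre. In MT486-Cre, 1 gene was called, Dusp4 (log2 fold change -1.35, SE 0.26, adjusted p = 0.0495), beside 0.217% of all genes, and it fell short without any 1 of the 4 libraries (adjusted p = 0.149 to 0.347). In MT194-Cre none was called, beside 0.174% of all genes, although Dusp4 had a similar value of -1.31 (SE 0.26, adjusted p = 0.0736), and 3 genes had an unadjusted p under 0.05. DESeq2 and the replicate block each called Dusp4 there (adjusted p = 0.000495 and 0.000167). In DMT-Cre none was called by edgeR or DESeq2, beside 0.00724% of all genes, none had an unadjusted p under 0.05, and log2 fold changes ran from -0.54 to -0.03.

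With Ad-GFP, where all cells keep the floxed allele, the constructs were compared with EV to ask whether the added NELFB moved the feedback genes by itself. No member was called by edgeR or DESeq2 in any of the 4 comparisons, and 0 of 10 had an unadjusted p under 0.05 in each. Log2 fold changes of the 10 genes ran from -0.31 to 0.28 for WT, -0.31 to 0.46 for MT194, -0.21 to 0.41 for MT486 and -0.48 to 0.25 for DMT. Of all genes, 0% were called for WT, MT194 and DMT (84, 276 and 175 genes at an unadjusted p under 0.05, and 1, 5 and 3 by DESeq2) and 0.00724% for MT486.

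The top of the order of the 10 population groups was similar from gene to gene, while the lower places varied. For example, EV-GFP was last for Dusp4 but above WT-Cre for Dusp6. EV-Cre had the highest mean of 9 genes, with MT486-Cre first for Spred1, and DMT-Cre came second for 8 genes, after MT486-Cre in Spry1. From highest to lowest group mean the ratio was 5.94 for Dusp5, 5.03 for Dusp4, 4.71 for Spry4, 4.69 for Etv5 and 4.57 for Etv4, against 1.31 for Spred1. The second place was often within the spread of the first: for Spry4, EV-Cre had 6.67 and 5.98 CPM and DMT-Cre 4.66 and 6.58. Across the 10 group means of log2 CPM all 45 pairs of members had a positive Pearson r, from 0.69 to 0.98 with a median of 0.91, a description only, since all groups share the 2 experiments.

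Genes outside the set with the most similar profile over these 10 groups are given as a description, above a mean level of 1 CPM. For Spry4 they were Gdnf, Thbd and Ptgs2 (Pearson r 0.996, 0.996 and 0.995). For Dusp5 they were Maff, Smad7 and Iffo2 (0.992, 0.990 and 0.989) and for Dusp4 Chka, Prdm4 and Klc2 (0.986, 0.985 and 0.981). Spry1 was closest to Sbds, Smurf1 and Cep126 (0.980, 0.974 and 0.972). The ETV genes were closest to other genes still, Etv4 to Nhp2l1, Elavl1 and Hprt (0.991, 0.988 and 0.988) and Etv5 to Nob1, Nol9 and Dnajc2 (0.998, 0.995 and 0.995).

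Other genes of the pathway were read from lists by role. In EV the list of other ERK-responsive genes had 8 of 14 called as higher, beside 3.28% of all genes, none as lower, and a median log2 fold change of 1.23 beside 0.00 for all genes. Hbegf, which encodes an EGF receptor ligand, had 158 and 236 CPM with Ad-Cre against 21.2 and 26.5 (log2 fold change 3.04, SE 0.41, adjusted p = 0.000464). Fosl1, an AP-1 subunit gene, had 12.9 and 7.44 CPM against 1.77 and 1.66 (log2 fold change 2.56, SE 0.37, adjusted p = 0.000682), and Myc had 228 and 204 against 72.1 and 57.1 (log2 fold change 1.74, SE 0.15, adjusted p = 3.27e-05). The remaining 5 were Epha2, Plaur, Lif, Ier3 and Phlda1, with log2 fold changes from 1.13 to 2.02. Among the genes of the list that did not pass were Egr1 and Fos, Egr1 having a log2 fold change of 0.51 (SE 0.29, adjusted p = 0.292) and Fos of 0.00 (SE 0.74, adjusted p = 0.999).

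Among 13 other feedback inhibitors, 2 rose in EV, Dusp1 and Spred3, beside 3.28% of all genes. Dusp1, a phosphatase gene for p38, JNK and ERK, had 120 and 108 CPM with Ad-Cre against 48.5 and 35.0 (log2 fold change 1.45, SE 0.20, adjusted p = 0.000572), and Spred3 had 50.8 and 65.5 against 24.0 and 32.1 (log2 fold change 1.05, SE 0.27, adjusted p = 0.0215). Errfi1, an inhibitor of the EGF receptor, passed the adjusted p but not the fold threshold (log2 fold change 0.86, SE 0.17, adjusted p = 0.00602). The list's median was 0.59.

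The kinases and adaptors were read next. None of 23 genes of the RAS-RAF-MEK-ERK cascade was called in EV by edgeR or DESeq2, beside 6.52% of all genes, 4 had an unadjusted p under 0.05, and their median log2 fold change was 0.07. Map2k1, which encodes MEK1, had the highest log2 fold change of the list, 0.97 (SE 0.26, adjusted p = 0.0256), below the fold threshold. In the other direction Gab1, a docking protein gene picked here after its value was seen, had -0.97 (SE 0.15, adjusted p = 0.00115). Of 10 growth factor receptors none was called (1 at an unadjusted p under 0.05, and 1 called by DESeq2), with Pdgfra at -1.18 (SE 0.41, adjusted p = 0.0794) and Egfr at -0.52 (SE 0.38, adjusted p = 0.438).

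Ligands moved in both directions. Of 14 listed, 9 passed the filter on low counts, and 4 were called in EV, beside 6.52% of all genes. Pdgfb (log2 fold change 1.90, SE 0.33, adjusted p = 0.00243) and Fgf7 (1.01, SE 0.22, adjusted p = 0.0101) rose while Igf1 (-3.15, SE 0.36, adjusted p = 0.000174) and Fgf18 (-1.90, SE 0.50, adjusted p = 0.0245) fell. Igf1 had 1.44 and 1.04 CPM with Ad-Cre against 11.0 and 11.2. Of the repressors of ETV genes, Cic and its partners Atxn1 and Atxn1l, none was called by edgeR or DESeq2 and 1 had an unadjusted p under 0.05. Cic had a log2 fold change of -0.62 (SE 0.13, adjusted p = 0.00711), short of the fold threshold, and the partners 0.06 and 0.03.

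**Figure D3:**
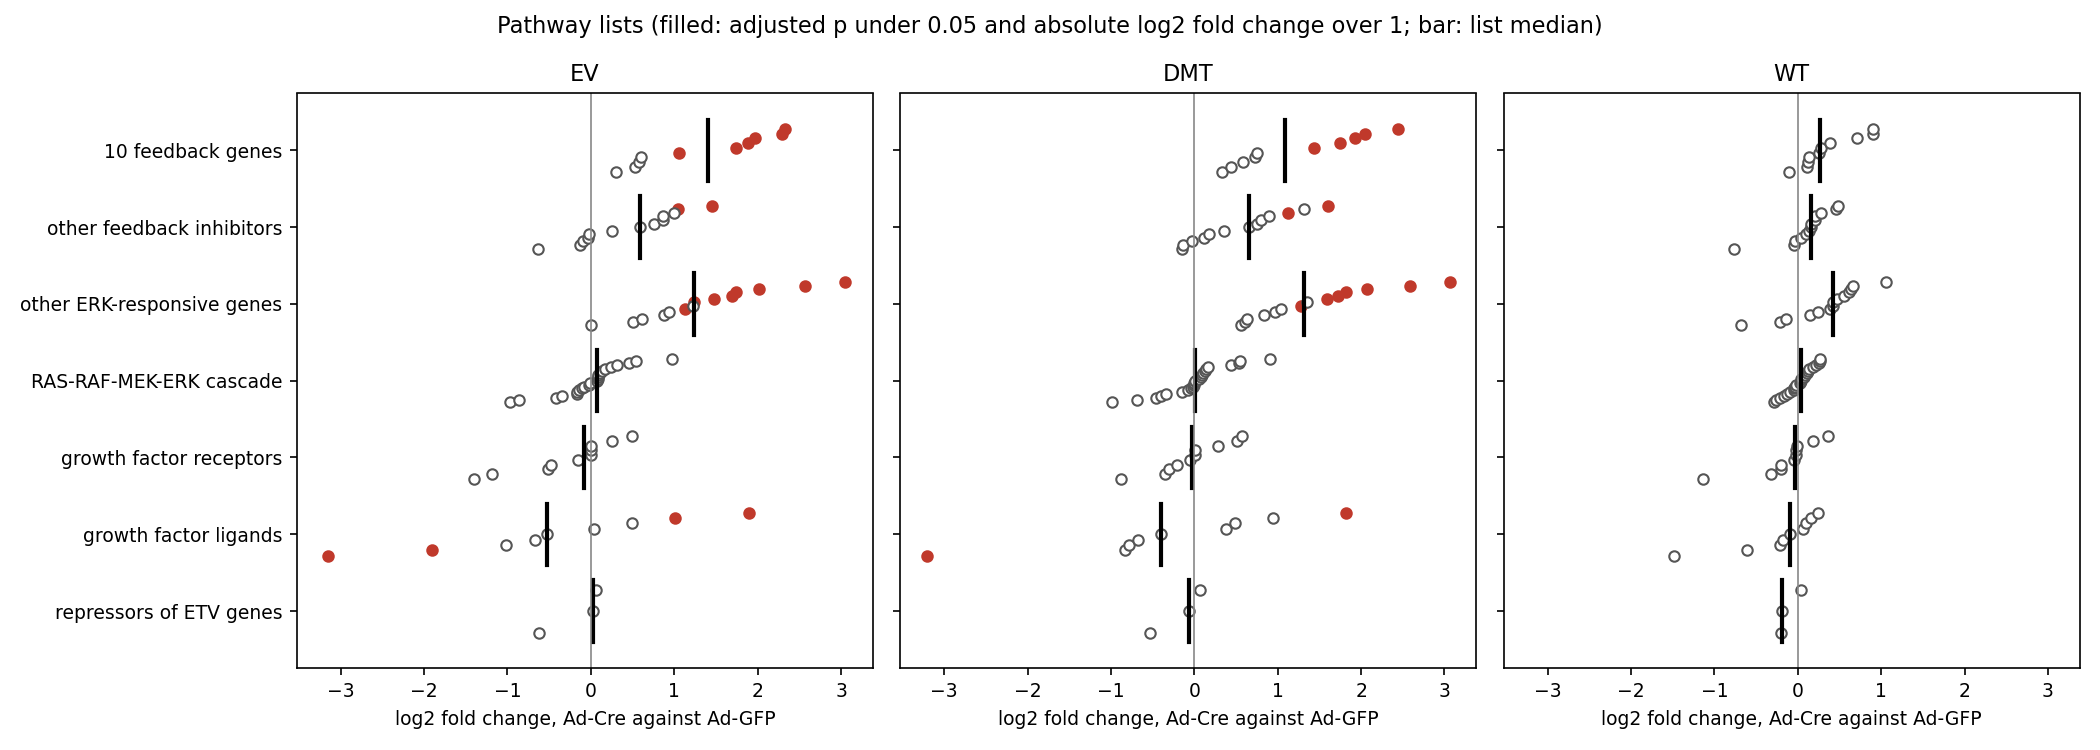
Log2 fold change of Ad-Cre against Ad-GFP (x axis, shared) for every tested gene of each list (y axis) in EV, DMT and WT, with filled points past both thresholds and bars at the list medians. In EV and DMT the feedback genes and other ERK-responsive genes lie to the right of 0 (medians 1.40 and 1.23 in EV), while the cascade genes center on 0 (median 0.07 in EV), and in WT no gene of the lists is filled.

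In the other constructs, of the 14 other ERK-responsive genes, 7 were called as higher in DMT, beside 2.61% of all genes called as higher. The count was 2 in MT194 (Hbegf and Lif), 2 in MT486 (Hbegf and Myc) and 0 in WT. Of all genes, 5.31%, 2.48%, 1.46% and 0.0217% were called in either direction in DMT, MT194, MT486 and WT. In the same order DESeq2 called 8, 5, 4 and 0 of the 14, and 11, 11, 9 and 2 had an unadjusted p under 0.05. The median log2 fold change of the 14 genes was 1.32 in DMT, 0.95 in both MT194 and MT486 and 0.42 in WT. The medians for the 10 feedback genes were 1.09, 0.50, 0.62 and 0.27 in DMT, MT194, MT486 and WT. No cascade gene was called by edgeR or DESeq2 in any construct.

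The clones were established lines, each grown from 1 cell, and their levels were set apart from the populations by separate normalization, so that no test was made between the 2 sets. Within them the feedback genes varied from clone to clone of a group. Etv4 had 114, 60.1 and 26.8 CPM in WT(N48) clones 1 to 3, Spry4 18.2, 8.44 and 2.17, and Spry2 101, 53.6 and 29.7. In this group clone 3 was the lowest for 9 of the 10 genes, Spry1 being the exception. Clone 3 also had the lowest Nelfb of the group, with 56.3 CPM against 241 and 127. Members went both ways in the libraries labelled WT clone, where clone 2 had the highest Nelfb. Dusp4 was lowest in that clone (81.4, 47.7 and 63.2 CPM in clones 1 to 3), while Dusp5 was highest in it (3.35, 6.47 and 3.15 CPM). The part of Nelfb in these values was not tested.

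Among the Δ-C60 clones the widest ratios were those of Spry1, which had 64.3, 1.31 and 88.9 CPM, and of Dusp4, which had 14.2, 93.3 and 90.7 CPM. In Δ-C60 against WT(N48) clones no member was called, where 0% of all 13223 genes were (1540 at an unadjusted p under 0.05, and 142 by DESeq2), and 1 member, Spry1, had an unadjusted p under 0.05 (DESeq2 called 0 of 10). Its log2 fold change was 2.36 (SE 1.02, adjusted p = 0.404), and without Δ-C60 clone 2 it was 2.93 (adjusted p = 0.0436). Dusp5 had 20.4, 9.78 and 37.0 CPM in Δ-C60 against 24.6, 10.7 and 8.58 in WT(N48) clones, which overlap.

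**Figure D4:**
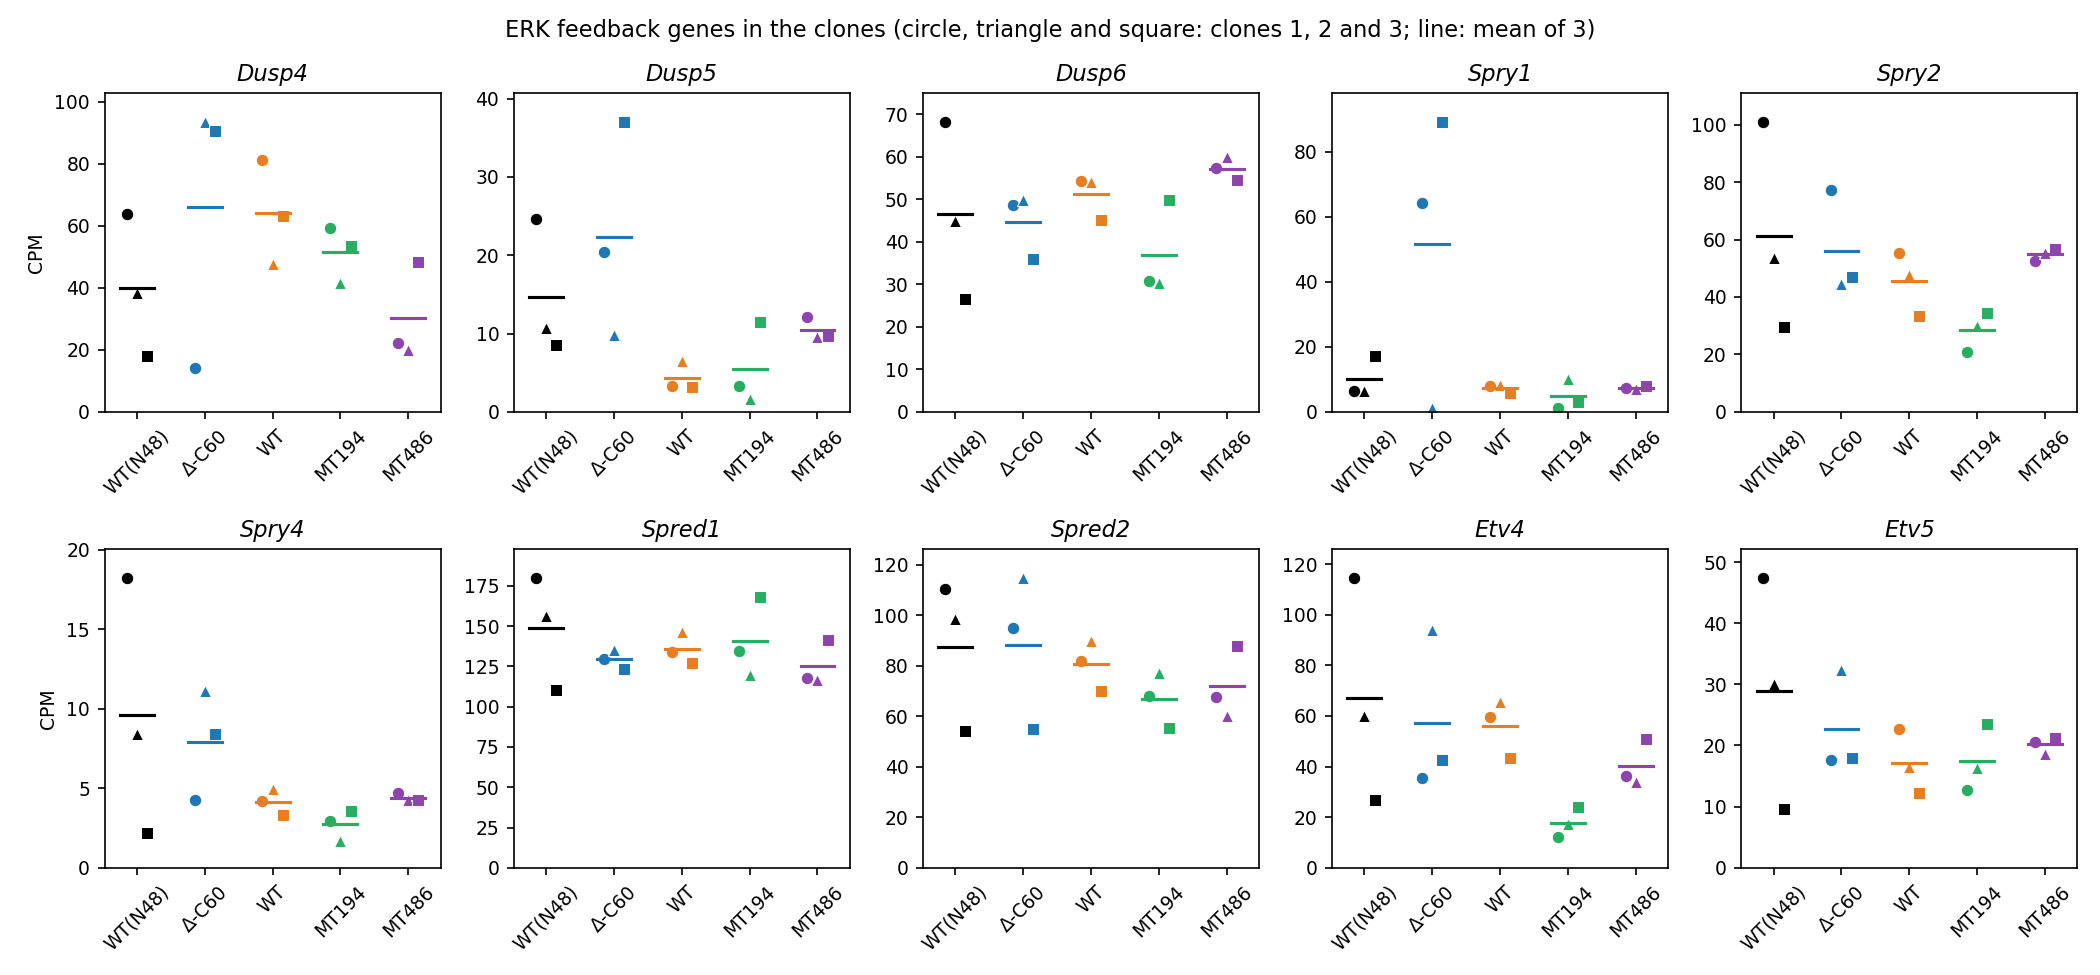
CPM (y axis, starting at 0) of each feedback gene in the 15 clone libraries by construct (x axis), with circles, triangles and squares for clones 1, 2 and 3 and lines for the mean of 3. Etv4 in the MT194 clones (12.2 to 24.2) lies below every other clone, and Spry1 is near 0 in Δ-C60 clone 2 but above 60 in clones 1 and 3.

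Against the libraries labelled WT clone, 2 of which had little Nelfb, Δ-C60 clones had no called member by edgeR, beside 5.38% of all genes, with 2 at an unadjusted p under 0.05. Dusp5 had 3.35, 6.47 and 3.15 CPM in the WT clones, all below the Δ-C60 clones, and a log2 fold change of 2.37 (SE 0.68, adjusted p = 0.0503). Spry1 had 8.04, 8.17 and 5.63 CPM there and a log2 fold change of 2.82 (SE 1.04, adjusted p = 0.104). DESeq2 called both (adjusted p = 0.00319 and 0.0386), and without Δ-C60 clone 2 edgeR did so too (log2 fold changes 2.72 and 3.39, adjusted p = 0.0256 and 0.00972).

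MT194 clones had the lowest Etv4, with 12.2, 17.2 and 24.2 CPM, below every other clone. Against WT(N48) clones its log2 fold change was -1.91 (SE 0.49, adjusted p = 0.0406), the 1 member called beside 3.24% of all genes. The call was lost without any single library other than WT(N48) clone 3 (adjusted p = 0.069 to 0.192), and without WT(N48) clone 3 there were 3 calls, Spry2, Spry4 and Etv4, the same number as by DESeq2. Against WT clones, where Etv4 had 59.7, 65.6 and 43.2 CPM, the log2 fold change was -1.65 (SE 0.49, adjusted p = 0.0798), no member was called beside 1.47% of all genes, 1 had an unadjusted p under 0.05 and DESeq2 called 1 (Etv4, adjusted p = 0.0102).

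The Sprouty genes were even among the MT486 clones, with Spry1 at 7.21, 7.09 and 8.01 CPM, Spry2 at 52.4, 55.2 and 56.8 and Spry4 at 4.74, 4.24 and 4.24. No member was called by edgeR or DESeq2 against WT(N48) clones, beside 0.272% of all genes, or against WT clones, beside 0% (1176 genes at an unadjusted p under 0.05, and 111 by DESeq2), and 0 of 10 had an unadjusted p under 0.05 in either. The libraries labelled WT clone and the WT(N48) clones also showed no called member between them by edgeR or DESeq2, beside 1.47% of all genes, and 1 had an unadjusted p under 0.05. Leaving out both low-Nelfb WT clones leaves 1 WT clone in that arm, assumed to vary like the other groups, and the count of 0 members in each such comparison then says nothing about stability.

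Across the 15 clone libraries, over 45 pairs of members, Pearson r of log2 CPM ran from -0.35 to 0.82 with a median of 0.45, and 37 were positive. These are single libraries, whereas the values for the populations are over group means, so the ranges are not compared. The Spred genes had the narrowest range, with group means of Spred1 within a ratio of 1.19 and of Spred2 within 1.32, against 10.9 for Spry1 and 5.18 for Dusp5.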

How the data were processed

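RNA-seq counts of 35 libraries were used. Per the study's methods, the authors aligned reads to mm10 with bowtie2, skipped alignments of low mapping quality and deposited the count of reads per gene from HTSeq, with no normalization. Reads on no gene were left out of library sizes (11.7% to 15.8% in replicate 1 and 15.2% to 21.3% in replicate 2 of the populations).

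These counts were analysed in R 4.3.3 with edgeR 4.0.16 (TMM-scaled CPM, quasi-likelihood test, robust, 1 mean per group, filterByExpr), separately for 20 populations and 15 clones, and adjusted over the 13805 and 13223 genes tested. SE is the log2 fold change divided by the square root of F. A gene was called where its log2 fold change was beyond 1 in either direction with an adjusted p below 0.05, and interactions at an adjusted p under 0.05. Alternatives were DESeq2 1.42.0, its size factors, no filter, a fold threshold of 0.5, the compared groups alone, a replicate block, each library left out and, added after seeing the data, both low-Nelfb WT clones left out. Steps were tested on simulated data. Log2 CPM used a prior count of 2. Exon lengths and positions come from the GENCODE annotation of GRCm38.

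Replicate numbers pair the populations: the study describes 2 independent experiments without saying that the numbers mark them, and deviations of replicate 1 from the group mean correlated over genes at over 0.1 in 45 of 45 pairs of groups (0.42 to 0.73). Clone numbers are names. The labels call the libraries biological replicates but do not describe separate cultures, so p-values measure the spread between these libraries. The 10 genes, the lists and the rule for named genes (members, Nelfb, list genes called in EV, at most 5 uncalled genes of a list by mean CPM, and the 3 most similar genes per member called in EV) were chosen with earlier results of these data known.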

Additional observations from a re-analysis of the deposited data

Results flagged for a closer look

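The change in Dusp4 with Ad-Cre differed between WT and EV by a test of the difference itself: the log2 fold change in WT minus that in EV was -2.05 (SE 0.38, adjusted p = 0.0299, edgeR's interaction over all genes). Both EV-Cre libraries (31.2 and 24.0 CPM) were above the 2 WT-Cre libraries (8.57 and 6.20 CPM). The call was lost when any 1 of 7 of the 8 libraries was left out (adjusted p = 0.0708 to 0.203) and with these groups fitted alone (adjusted p = 0.145), and Dusp4 did not pass against EV for MT194, MT486 or DMT (adjusted p = 0.38, 0.491 and 1.00). With the replicate block Dusp4 passed for MT194 and MT486 (adjusted p = 0.00415 and 0.00474), as it did by DESeq2 (adjusted p = 0.0138 and 0.021).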

How the results depend on the processing

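Counts of members called are given here for the settings that moved them by more than 1.5 times. With the replicate block the counts were 4 for Ad-Cre in MT194, 4 in MT486, 5 for the interaction of WT, 1 each for the interactions of MT194 and MT486, 1 for MT194-Cre against EV-Cre and 0 for MT194 against WT(N48) clones. With DESeq2 they were 4 for Ad-Cre in MT194, 1 each for those interactions and for MT194-Cre against EV-Cre, 3 for MT194 against WT(N48) clones, 2 for Δ-C60 and 1 for MT194 against WT clones. With the compared groups alone they were 2 in EV, 0 in MT194 and MT486, 0 for the interaction of WT and MT486-Cre against EV-Cre, and 0 and 1 for MT194 against WT(N48) and WT clones. With the size factors of DESeq2 they were 1 for Ad-Cre in MT486 and 0 for MT486-Cre against EV-Cre, and with no filter 1 for Ad-Cre in MT486 and 0 for MT194 against WT(N48) clones. With 1 library left out the counts ran from 3 to 6 in EV, 0 to 1 in MT194 and in MT486, 3 to 5 in DMT, 0 to 1 for the interaction of WT, 1 to 3 for WT-Cre and 0 for MT486-Cre against EV-Cre, and 0 to 1, 0 to 2 and 0 to 3 for Δ-C60 against WT(N48), Δ-C60 against WT and MT194 against WT(N48) clones. A fold threshold of 0.5 added Spry2 in DMT. The cause was not tested; fewer samples leave fewer degrees of freedom.

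Among the 86 gene values recomputed under every alternative, those that turned direction had not passed the test, and turned with 1 library left out. In WT these were Dusp4 (-0.063 to 0.71), Dusp5 (-0.36 to 0.84), Dusp6 (-0.060 to 0.31), Spry1 (-0.35 to 0.17) and Spry2 (-0.023 to 0.28), in MT486 Dusp6 (-0.0016 to 0.48), and for WT-Cre against EV-Cre Spred1 (-0.17 to 0.057) and Spred2 (-0.32 to 0.15). Of the 899 values under alternatives, 798 kept direction and call.

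Over all genes, the replicate block called 120 in WT, 744 in MT194, 586 in MT486, 1215 in DMT and 2388 for the interaction of WT, where the fit without it called 3, 343, 201, 733 and 94. Against EV-Cre it called 1192 in WT-Cre, 252 in MT194-Cre and 431 in MT486-Cre, beside 559, 24 and 30 without it, and for the interactions of MT194 and MT486 137 and 409, beside 1 each. DESeq2 called 28 in WT, 364 in MT486, 455, 21 and 47 for the interactions of WT, MT194 and MT486, and 102 and 234 in MT194-Cre and MT486-Cre. Against WT(N48) clones DESeq2 called 878 in MT194 and 385 in MT486 clones, where edgeR called 429 and 36, and 649 in WT clones, where edgeR called 1.47% of genes, and against WT clones 1170 in Δ-C60 and 485 in MT194 clones, where edgeR called 711 and 1.47% of genes. The replicate block changed no call of a member other than those given here and beside the results. Each population group had 2 libraries, and Dusp5, with 9 to 107 reads, had the largest SE of the members in EV.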
